A study of Mus musculus with 10 samples.

Results

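H3K9lc, histone H3 carrying a lactyl group at lysine 9, was compared gene by gene between 2 CUT&Tag libraries of primary mouse heart fibroblasts. Both cultures received TGF-β. One of them, called siHK1 here because its label names the siHK1 table while its title reads SI, had first been transfected with an siRNA against hexokinase 1 (HK1). The other is called TGF, and its labels name no control siRNA, so transfection itself and loss of HK1 cannot be told apart. Reads were summed over all listed regions carrying the same gene symbol, and genes with 50 or more reads over both libraries were kept. This left 8268 of the 12994 genes with a listed region, and these genes held 97.2% of the reads. The series has 10 samples with 1 library per condition and antibody, so no difference below has a replicate error and none was tested. Every interval is an exact (Clopper-Pearson) 95% interval that covers read counting only, and PCR copies are not independent molecules.

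Lactate, the end product of glycolysis, can be joined to lysines of histones, and lactylated histone H3 is found at active promoters and enhancers as well as elsewhere in chromatin. Hexokinase carries out the first step of glycolysis and traps glucose in the cell as glucose-6-phosphate. TGF-β turns cardiac fibroblasts into contractile, collagen-secreting myofibroblasts, and the comparison addresses whether HK1 bears on where this histone mark lies in such cells.

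The TGF library had 2490853 reads in 74751 listed regions and the siHK1 library had 1419023. Both were set to equal totals, which multiplies siHK1 by 1.76, and the log2 ratio of siHK1 over TGF is used throughout. Equal totals remove by construction any loss or gain common to all regions, so each value says how a gene stood relative to the rest of its library. Genes are the authors' nearest start sites rather than the places where the mark lies. Regions more than 3 kb from a start site held 93.9% of the reads, those more than 10 kb away held 82.4%, and regions annotated as distal intergenic held 60.1% of TGF and 59.0% of siHK1 reads. A kept gene had a median of 5 regions and 175 reads. Of 9 defining markers of cardiac fibroblasts, 7 had a listed region, with 854 reads in TGF and 424 in siHK1. Pdgfra and Pdgfrb had none. The cardiomyocyte markers Tnnt2, Tnni3 and Actn2, the endothelial marker Pecam1 and the leukocyte markers Cd68 and Csf1r also had none. Only 2 of 5 cardiomyocyte, 3 of 4 endothelial and 2 of 4 leukocyte markers had a region, and since the mark is not RNA these counts do not identify the cells.

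Most genes had nearly the same share of H3K9lc in both libraries. The median log2 ratio was -0.063, the middle 50% of genes lay between -0.24 and 0.12, and 92.3% of genes were within 1.5-fold. Lower values in siHK1 were found for 4952 genes, or 59.9%. At least 2-fold lower were 65 genes (0.786% of those kept), and at least 2-fold higher were 19 (0.23%). The excess of lower genes among these depended on scaling and on the read minimum. A minimum on raw sums keeps more genes that were high in the deeper TGF library, and its part in the excess was not tested. The counts were 43 and 31 with TMM factors of edgeR, 88 and 62 when the minimum of 50 reads was applied after scaling, and 779 and 794 among genes with 1 or more reads in each library. The counting interval lay below 0 for 757 genes (9.16%) and above 0 for 363 (4.39%). The split of genes into lower and higher ones depended on the scaling and on the regions used. With TMM factors, which assume that most genes do not differ, the share of lower genes was 51.5%. Leaving out the 100 regions of most reads from the totals gave 50.6%, while scaling on regions that were a peak in both libraries gave 69.8%. Summing only regions that were a peak in both libraries, with the scaling unchanged, turned it to 40.8% over 4925 genes. Without scaling the share was 99.1%, as the log2 shift of 0.81 between the totals then remains in every gene.

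**Figure D1:**
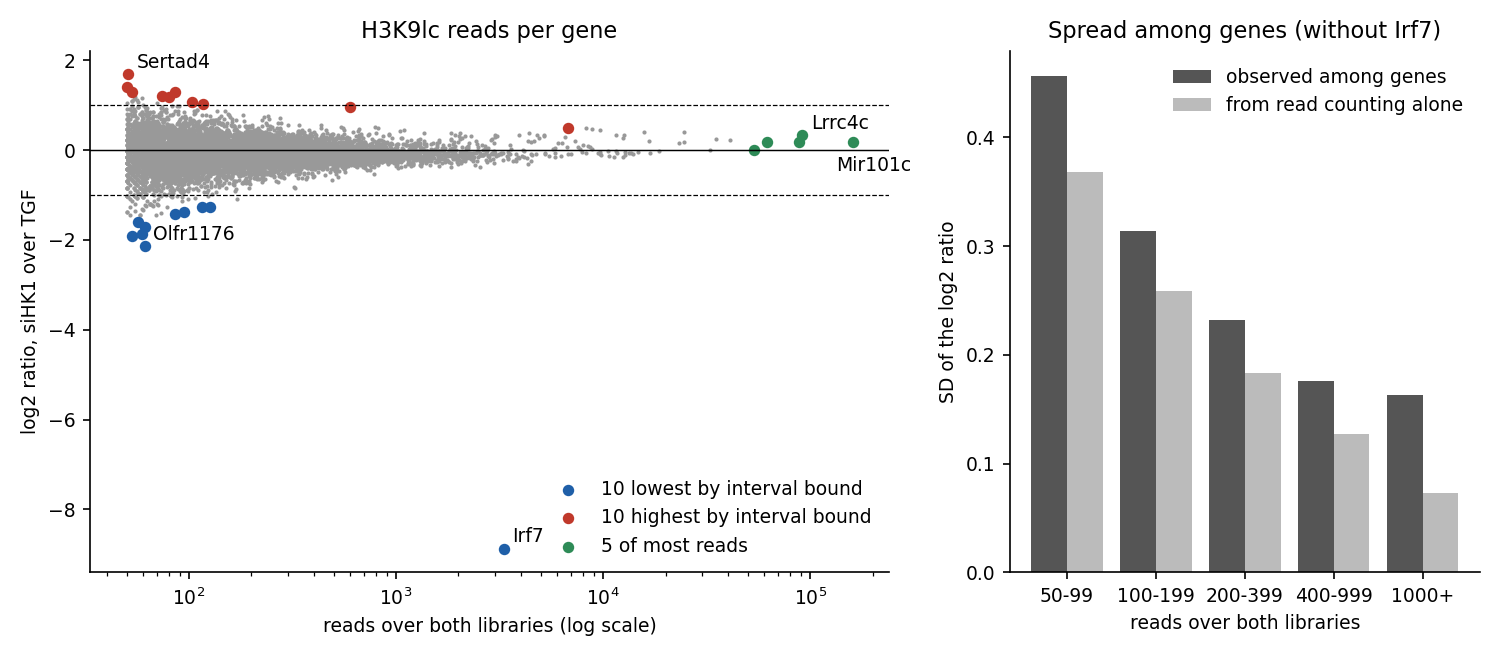
Left, each point is a gene, with its reads over both libraries on a log axis and its log2 ratio of siHK1 over TGF; dashed lines mark 2-fold. Right, bars give the SD of the log2 ratio among genes without Irf7 (dark) and the SD that read counting alone would give (light) by class of reads; the cloud narrows with depth, from 0.46 to 0.16, and Irf7 stands far below it.

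Large ratios were confined to genes of few reads, with Irf7 as the exception. Among the 2286 genes of 50 to under 100 reads, 59 were at least 2-fold lower and 16 at least 2-fold higher. Among the 2269 genes of 100 to under 200 reads, 5 were lower and 3 higher. No gene of 200 or more reads other than Irf7 reached 2-fold in either direction. The SD of the log2 ratio among genes of 50 to under 100 reads was 0.46, against 0.37 from counting alone. For the 547 genes of 1000 or more reads other than Irf7 it was 0.16, against 0.073 from counting. Spread beyond counting was thus present at every depth, and without replicates its part due to preparation of a single library was not tested. At the read minimum, the 66 genes with 49 reads had a median log2 ratio of 0.027 and the 66 genes with 50 reads one of -0.15.

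Irf7, a transcription factor that switches on type I interferon genes, had 3301 reads in TGF and 4 in siHK1. The log2 ratio was -8.88 (interval -10.75 to -7.52), and the gene ranked lowest of all 8268. All reads lay in 1 region, chr7:141263456-141264145 on GRCm38, which the authors' annotation places at the promoter, 986 bp from the start site. In the library titled NC (control) it held 1 read. Of its 690 bases, 509 (73.8%) are coding sequence of Irf7 in the GENCODE basic annotation, from the coding exons at chr7:141263456-141263574 and chr7:141263659-141264048. The region begins on the first base of the former, and 10 of the 74751 listed regions (0.0134%) had an edge exactly on a coding exon edge on the same side. The stretch around that edge is shown on the plus strand, chr7:141263426-141263605, opposite to the direction of the gene, with the coding exon in capitals.

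Irf7: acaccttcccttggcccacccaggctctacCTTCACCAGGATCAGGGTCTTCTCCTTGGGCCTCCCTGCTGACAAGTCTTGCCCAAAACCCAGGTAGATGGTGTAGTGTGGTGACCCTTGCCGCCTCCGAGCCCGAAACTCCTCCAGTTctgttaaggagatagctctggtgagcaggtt

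The c-JUN table, made with another antibody, lists no region at that place. Its only Irf7 region, chr7:141266174-141266521, had 16 reads in TGF and 7 in siHK1. Elsewhere the study used vectors carrying IRF7, the human gene in an adenovirus for cultured cells and the mouse gene in an AAV9 for animals, and whether vector DNA had a part in the 3301 reads in TGF was not tested. Without Irf7 the median of the other 8267 genes was again -0.063.

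The other 9 genes that stood lowest by the bound of their interval nearest 0 had between 53 and 126 reads over both libraries. Kdm1a encodes LSD1, a demethylase of histone H3. It had 52 reads in TGF and 9 in siHK1 (log2 ratio -1.72, interval -2.93 to -0.68), all in 1 region at chr4:136569931-136570807, annotated as promoter and 1324 bp from the start site. Pip4k2a, a lipid kinase that makes phosphatidylinositol 4,5-bisphosphate, had 71 and 15 reads (-1.43, -2.34 to -0.61), of which 65 and 13 lay in an intronic region at chr2:18972341-18973471. M1ap, a meiosis protein, had 48 and 9 reads (-1.60, -2.82 to -0.56), mostly 265 bp from its start site. Every region of these 3 genes was marked as a peak in the TGF library only. Them5, a mitochondrial acyl-CoA thioesterase, had 51 and 8 reads (-1.86, -3.15 to -0.77) in 1 distal intergenic region. Serpina1a, 1 of several closely similar antitrypsin genes, had 46 and 7 reads (-1.90, -3.30 to -0.75). The remaining 4 are Olfr1176 (54 and 7 reads), Olfr360 (102 and 24), the placental cathepsin Ctsj (78 and 17) and Tdpoz4 (93 and 22), all members of multigene families whose near-identical copies can share reads.

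Among the 10 highest genes, Sertad4 had 18 reads in TGF and 33 in siHK1 (log2 ratio 1.69, interval 0.82 to 2.60), in 2 regions that were both peaks in siHK1 only. C5ar1, the receptor for complement C5a, had 20 and 30 reads (1.40, 0.53 to 2.29). Pacsin2, which bends membranes during endocytosis, had 32 and 42 reads (1.20, 0.51 to 1.91) in 1 distal intergenic region 17873 bp from its start site. Lhcgr, the receptor for luteinizing hormone, had 47 and 56 reads (1.06, 0.48 to 1.66). Acnat1 (22 and 31), Olfr11 (35 and 45), 1700084F23Rik (36 and 50) and Cabcoco1 (54 and 63) had log2 ratios between 1.03 and 1.31. Only 2 of the 10 had more than 200 reads. 1700020D14Rik, on chromosome Y, had 284 and 317 reads over 6 distal intergenic regions (0.97, 0.73 to 1.21). A630089N07Rik had 3735 and 3015 reads (0.50, 0.43 to 0.57), and 3411 and 2803 of them lay in a telomere-repeat region described with the other repeats.

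**Figure D2:**
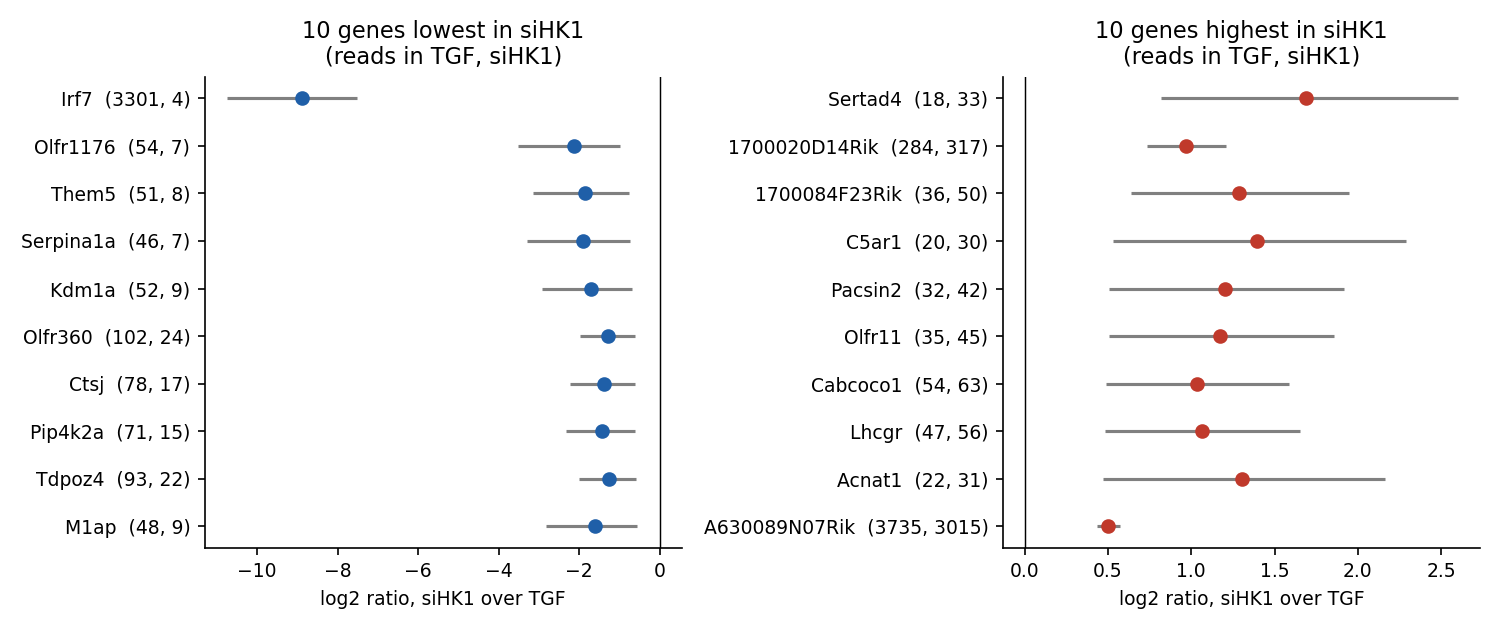
Log2 ratio of siHK1 over TGF (points) with the 95% counting interval (lines) for the 10 lowest and 10 highest genes by the bound nearest 0, each with its raw reads in TGF and in siHK1; the 2 panels have different horizontal scales. Irf7 lies at -8.88 and all other genes shown between -2.14 and 1.69.

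Among the 5 genes of most reads, the region of most reads was between 62.7% (Pisd-ps2) and 99.6% (Zfp825) repeat-masked. Mir101c, a microRNA gene, had 97005 reads in TGF and 62961 in siHK1 (log2 ratio 0.19, interval 0.17 to 0.20). Lrrc4c, a synaptic adhesion protein, had 53381 and 38287 (0.33, 0.31 to 0.35). 2700054A10Rik had 53896 and 34782 (0.18, 0.16 to 0.20). All of these were higher in siHK1 as summed. Without the repeat regions summed below, and with totals set equal again over the rest, Lrrc4c had a ratio of -0.17. With the scaling unchanged, 2700054A10Rik had one of -0.041 without its region of most reads. Zfp825, a zinc finger gene, had 37345 and 24184 (0.18, 0.16 to 0.21). Pisd-ps2, a pseudogene, had 33844 and 19391 reads (0.01, -0.02 to 0.03) and did not differ beyond counting. Most of the reads of Lrrc4c (42265 and 30866) lay in a single region, chr2:98666240-98667320, 1198151 bp from its start site, and most of those of 2700054A10Rik (52412 and 33960) at chr17:13550673-13553195, which is 97.9% repeat-masked. A symbol here is therefore a neighbour and not a source. The region of most reads of Fgf14, a growth factor relative that tunes sodium channels, lies 124426 bp from its start site and is an array of the telomere repeat.

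These 2 stretches are shown because their regions have the most reads of all 74751 listed regions. They were read on the plus strand of the RefSeq copy of GRCm38 at chr17:13550974-13551153 and chr2:98666541-98666780. Capitals mark the 5-base unit GCTGT in 2700054A10Rik and the letters GAAAA in Lrrc4c.

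2700054A10Rik: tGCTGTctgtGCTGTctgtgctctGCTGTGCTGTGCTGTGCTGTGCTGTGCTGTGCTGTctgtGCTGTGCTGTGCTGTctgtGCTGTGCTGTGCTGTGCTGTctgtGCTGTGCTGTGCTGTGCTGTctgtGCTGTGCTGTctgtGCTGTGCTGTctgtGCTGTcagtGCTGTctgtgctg
Lrrc4c: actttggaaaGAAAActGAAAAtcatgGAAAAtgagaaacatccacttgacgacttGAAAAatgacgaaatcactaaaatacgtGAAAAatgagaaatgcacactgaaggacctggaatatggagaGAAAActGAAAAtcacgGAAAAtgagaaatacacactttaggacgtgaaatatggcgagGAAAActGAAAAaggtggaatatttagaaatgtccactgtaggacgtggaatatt

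Regions of 4 kinds of repeat held a larger share of the siHK1 library than of the TGF library. A region was counted in a kind when 50% or more of it matched. The 32 telomere-repeat regions had 78911 reads in TGF (3.17% of the library) and 58906 in siHK1 (4.15%), a log2 ratio of 0.39 (interval 0.37 to 0.41). The 15 regions sharing sequence with the Lrrc4c region had 110392 and 77900 reads (0.31, 0.30 to 0.32). Telomere repeats cap chromosome ends, and shorter copies of them also lie inside chromosomes. The 9 regions sharing sequence with 2700054A10Rik had 71171 and 45996 reads (0.18, 0.17 to 0.20). The 7 regions that match the mitochondrial genome had 18607 and 12146 (0.20, 0.16 to 0.23), among them those of Col19a1, a FACIT collagen gene with 14900 and 9578 reads. Together these 63 regions, 0.0843% of all, held 11.2% of TGF and 13.7% of siHK1 reads. The regions outside them had a ratio of -0.042. With equal totals, a rise of the repeats and a fall elsewhere cannot be told apart. How reads that fit several copies were placed is not given in the sources used here.

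**Figure D3:**
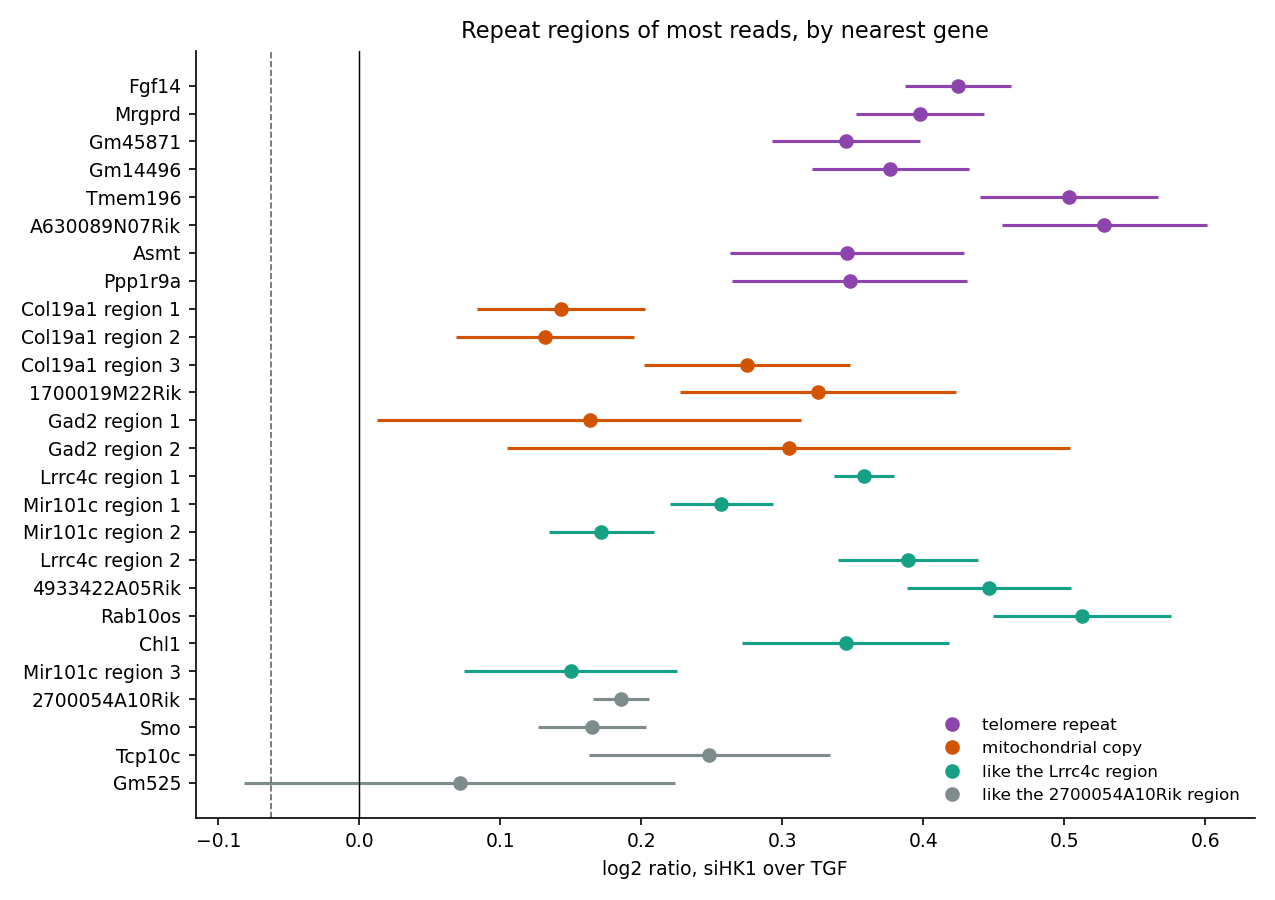
Log2 ratio of siHK1 over TGF (points) with the 95% counting interval (lines) for the repeat regions of most reads with 500 or more in TGF, named by nearest gene and coloured by kind of repeat; the dashed line is the median of all kept genes, -0.063. All lie above 0, with the interval of Gm525 alone crossing it.

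The same repeats separated from the rest of their genes. Fgf14 had a log2 ratio of 0.42 in its telomere region (13272 and 10149 reads) and -0.14 over its other 37 regions (717 and 370 reads). Flt1, a VEGF receptor, had 1518 and 1075 reads in 1 intronic region and 213 and 103 in its other 14, where the ratio was -0.24. Reads of the same genes with the c-JUN antibody gave log2 ratios of 0.65 for Lrrc4c (21335 and 18045 reads), 0.64 for Mir101c, 0.40 for Fgf14, 0.23 for Zfp825, 0.18 for 2700054A10Rik and -0.15 for Pisd-ps2. All of these but Pisd-ps2 were thus also higher in siHK1 with c-JUN, in separate libraries of the same 2 conditions. The NC (control) library had 9056 of its 115572 listed reads at Lrrc4c and 8692 at Mir101c.

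Most of the genes named by the study did not differ beyond counting. Hk1, the targeted gene, had 92 reads in TGF and 55 in siHK1 (log2 ratio 0.07, interval -0.44 to 0.57). This does not check the knockdown, since an siRNA acts on the transcript and no RNA was measured. Its 5 regions did not move together. Of its promoter regions, chr10:62320098-62320896 had 26 and 4 reads and chr10:62365207-62365724 had 15 and 9, while the intronic region at chr10:62366022-62366888 had 34 and 35. Col1a2, a chain of type I collagen, had 56 and 17 reads (-0.91, -1.78 to -0.10), all in regions 78771 to 182518 bp from its start site, and each of the 4 was a peak in TGF only. Col3a1, the type III collagen chain, had 293 and 174 reads (0.06, -0.22 to 0.34) over 14 distal intergenic regions.

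Axin2, a Wnt feedback inhibitor, had 1195 and 729 reads (0.10, -0.04 to 0.23), with 653 and 372 of them in 1 region 68025 bp away. Smyd3, a lysine methyltransferase, had 405 and 216 (-0.10, -0.34 to 0.15). For Cdk1, the mitotic kinase, the reads were 82 and 51, and for Postn, a matricellular protein of activated fibroblasts, 64 and 37. Lox, which crosslinks collagen, had 45 and 23. None of these had an interval away from 0. Slc40a1, the iron exporter, had 23 and 9 reads and fell below the read minimum. Col1a1 and Acta2, the smooth muscle actin of myofibroblasts, had no listed region. Across the 9 kept genes of this list the median was 0.021, and 2 (22.2%, Col1a2 and Irf7, against 9.16% of all genes) had an interval below 0 and none above.

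Genes that make or move lactate were few among those kept. Of 26 hexokinase and glycolysis genes, 10 had a region and 5 were kept, with a median of 0.07 and none with an interval away from 0. Pfkp, a phosphofructokinase, had the most reads and a log2 ratio of -0.24 (interval -0.49 to 0.02). Of 20 genes of lactate and pyruvate handling, 5 were kept. Slc16a1, the lactate transporter MCT1, had 173 and 76 reads (-0.37, -0.78 to 0.02), and Pdk4, which inhibits pyruvate dehydrogenase, had 71 and 61 (0.59, 0.07 to 1.11), the only one with an interval away from 0 (1 of 5 above, against 4.39% of all genes). Among writers and erasers of lysine acylation, 8 of 29 genes were kept with a median of -0.081 and no interval away from 0, from Sirt5 at -0.30 to Sirt1 at 0.27.

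Genes of TGF-β signalling lay near the median of all genes. Of 39 ligands, receptors and SMADs, 21 were kept, 12 lower and 9 higher, with a median of -0.075. Bmp2, a ligand, had 48 reads in TGF and 10 in siHK1 (log2 ratio -1.45, interval -2.60 to -0.45), and all 4 of its regions were peaks in TGF only. Ltbp1, which holds latent TGF-β in the matrix, had 203 and 87 (-0.41, -0.79 to -0.04). These 2 (9.52%, against 9.16% of all genes) were the only members with an interval away from 0. The receptor Acvr1c had the most reads (1084 and 637, 0.04), and Smad7, the inhibitory SMAD, had 31 and 25 (0.50, -0.32 to 1.31). Of the 21 Wnt genes kept, 2 had an interval below 0 (Fzd6 and Tcf7l2, 9.52%) and 1 above (Rspo4, 28 and 32 reads, interval 0.23 to 1.79, 4.76%), close to the 9.16% and 4.39% of all genes. Fzd6 had a ratio of 0.10 without its region of most reads. Of 14 PDGF and FGF genes, 4 (28.6%, against 59.9% of all genes) were lower, with a median of 0.065. Fgf14 and Fgf12 had intervals above 0 (14.3%). The call of Fgf14 rests on its telomere region, without which its ratio was -0.14.

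Matrix genes did not share a direction. Among all kept genes 59.9% were lower, 9.16% had an interval below 0 and 4.39% one above. Of 11 fibrillar collagen genes, 7 were kept with a median of 0.24. Col1a2 had an interval below 0, while Col2a1 (161 and 122 reads, 0.41, 0.06 to 0.76) and Col11a1 (217 and 154, 0.32, 0.01 to 0.62), both cartilage collagens, had intervals above. The 20 other collagens had a median of -0.015 with 11 lower and 9 higher, no interval below 0 and 3 above (15.0%). These were Col13a1 (629 and 435 reads, 0.28), Col23a1 (626 and 430, 0.27) and Col19a1, whose reads lie mostly in copies of mitochondrial DNA. Of 15 matricellular and matrix proteins, 10 (66.7%) were lower (median -0.11), and the proteoglycan Lum (242 and 99 reads, -0.48, -0.83 to -0.13) alone had an interval away from 0 (6.67%). Of 19 matrix proteases and inhibitors, 12 (63.2%) were lower (median -0.16), with intervals below 0 (10.5%) for the proteases Adamts6 (48 and 15 reads) and Adamts9 (172 and 74). These shares are near those of all genes. Of 13 integrins and laminins, Itga8 and Itgb5 had intervals below 0 and Lama1 and Lama2 above. The 6 contractile genes kept, with Tpm1 highest (26 and 25 reads, 0.76, -0.10 to 1.60), had no interval away from 0.

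Transcription factors of interest were likewise mixed. Of 10 AP-1, SMAD-partner and NFAT genes, 6 (60.0%, against 59.9% of all genes) were lower (median -0.12) and Maf, a bZIP factor, was the 1 with an interval away from 0 (427 and 307 reads, 0.34, 0.12 to 0.55). Nfatc2 had 332 and 163 reads (-0.21, -0.49 to 0.06) and Jun 213 and 133 (0.13, -0.19 to 0.45). Beside Irf7, 5 interferon genes were kept. Ifi44 (212 and 87 reads, -0.47, -0.85 to -0.11) stood below 0 and Oasl1, a 2′-5′ oligoadenylate synthetase-like gene (680 and 447, 0.21, 0.03 to 0.38), above, although the median over the regions of Oasl1 was -0.93. Among all kept genes 9.16% had an interval below 0 and 4.39% one above. Irf7 alone held 3301 of the 4702 TGF reads of this list. The 8 cell cycle genes kept had a median of -0.057 and no interval away from 0.

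Markers of cell types had the following values. The 16 fibroblast markers kept had a median of 0.041, with intervals below 0 for Thy1 (104 and 37 reads, -0.68, -1.26 to -0.13) and Lum, or 12.5% against 9.16% of all genes. In regions that were a peak in both libraries Thy1 had a ratio of 0.046. Kept markers of other types were 4 for cardiomyocytes (median -0.019), 7 for endothelium (-0.071), 4 for leukocytes (-0.32) and 12 for neurons and glia (-0.0087). Among the endothelial markers Flt1 had an interval above 0 (14.3%, against 4.39% of all genes), which rests on its repeat region. Among the neural and glial markers Dlg2 had one above (8.33%), and Cntnap2, Csmd1 and Ctnna2 had one below (3 of 12, against 9.16% of all genes). Whether the mix of cells differed between cultures was not tested.

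**Figure D4:**
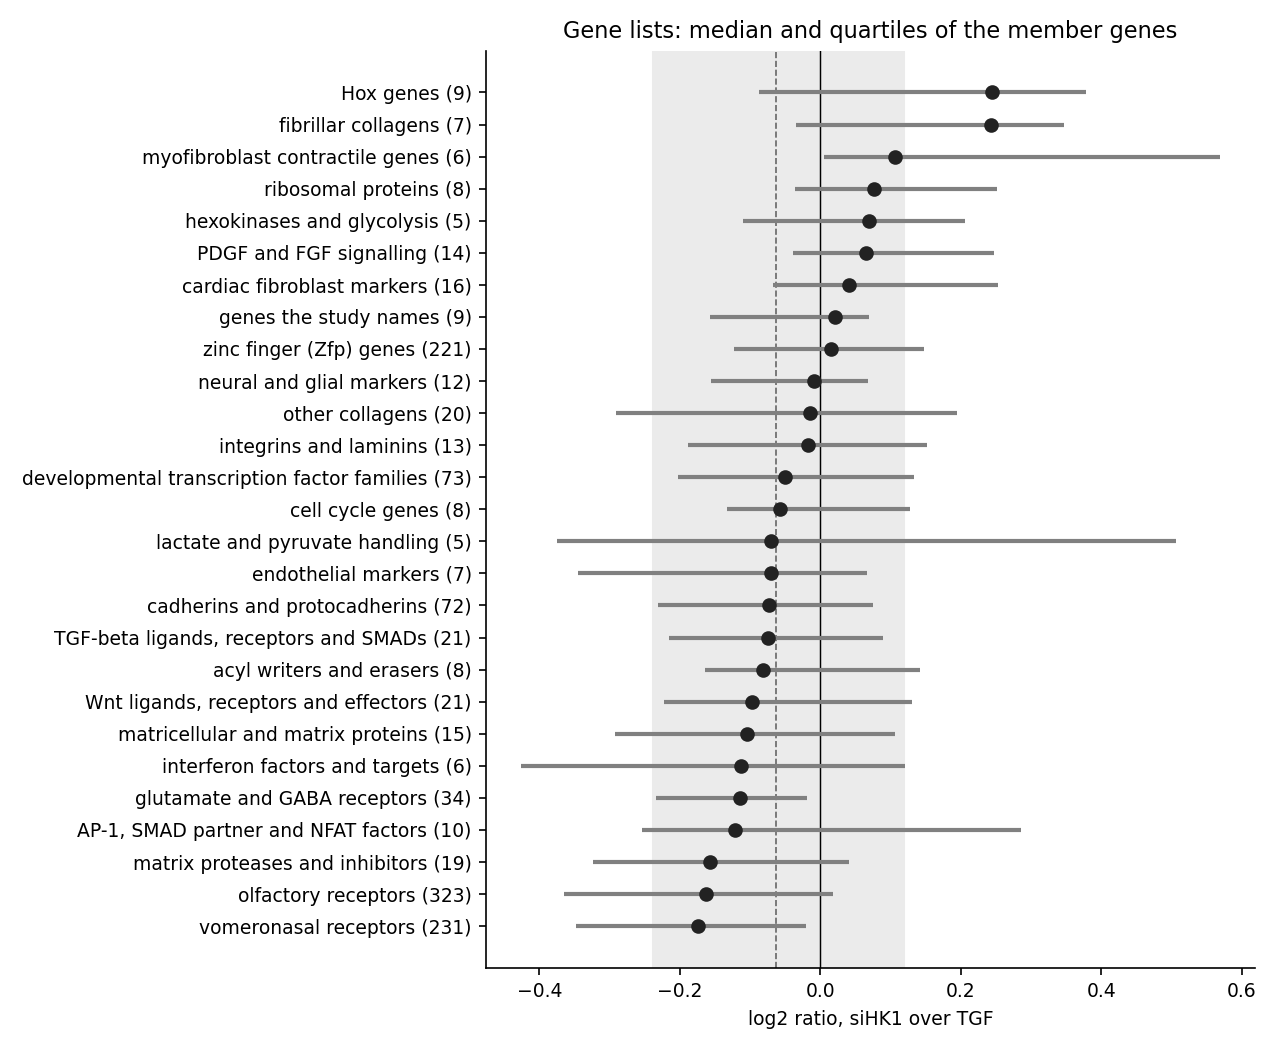
Median (points) and quartiles (lines) of the log2 ratio of siHK1 over TGF among the kept members of each gene list of 5 or more, with the number kept in parentheses; the shaded band and dashed line are the quartiles and median of all 8268 kept genes. The list medians run from -0.17 for vomeronasal receptors to 0.24 for Hox genes, and the quartiles of every list overlap the band.

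Chemoreceptor families were the largest lists with a median below that of all genes. Olfactory receptors bind odorants in the nose, and 323 of the 632 with a region were kept. Of these, 238 (73.7%) were lower in siHK1, against 59.9% of all genes, and the median was -0.16. The counting interval lay below 0 for 27 of them (8.36%, against 9.16% of all genes) and above 0 for 4. Vomeronasal receptors detect pheromones, and 231 of 293 were kept, 179 (77.5%) lower, with a median of -0.17, 38 intervals below 0 (16.5%) and 4 above. The median share of a gene's reads in distal intergenic regions was 100% for olfactory and 86.5% for vomeronasal receptors, against 75.1% among all genes, and the median repeat-masked share of its regions was 76.1% and 68.3% against 59.1%. Their part in the lower medians was not tested. Genes whose reads were all distal intergenic had a median of -0.069. Restricted to regions that were a peak in both libraries, 134 vomeronasal receptors entered with a median of 0.018, while that of all genes entering was 0.059.

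Other families had medians on either side of that of all genes. The 221 zinc finger (Zfp) genes kept had a median of 0.015, with 105 lower (47.5%, against 59.9% of all genes) and 116 higher. Intervals lay below 0 for 10 of them (4.52%, against 9.16% of all genes) and above 0 for 13 (5.88%, against 4.39%). Hox genes, which set position along the body axis, had a median of 0.24 over 9 genes, with intervals above 0 for Hoxc12 (81 and 77 reads, 0.74, 0.27 to 1.21) and Hoxb13 (458 and 309, 0.24, 0.03 to 0.46). Of 34 glutamate and GABA receptor genes, 26 (76.5%) were lower, against 59.9% of all genes, with a median of -0.12. Intervals lay below 0 for Gabrg1 and Grik2 and above 0 for Grik4 and Grin2b, or 5.88% each way. Without distal intergenic regions Gabrg1 had a ratio of 0.13. The 72 cadherins and protocadherins had a median of -0.073, with Cdh7 (1645 and 750 reads, -0.32, -0.45 to -0.20) and Cdh18 (1864 and 889, -0.26, -0.37 to -0.14) among 9 intervals below 0 (12.5%). Another 3 intervals lay above 0 (4.17%), those of Cdh17, Pcdhb19 and Pcdhga11. The 73 developmental factors had a median of -0.051, with 60.3% lower, 3 intervals below 0 (4.11%) and 1 above. Cdh7 and Cdh18 gathered their reads over 89 and 107 regions, with 93.5% and 83.6% of the reads in distal intergenic ones. The 8 ribosomal protein genes kept had a median of 0.076 and none differed beyond counting.

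In these counts the ratio from a gene's distal intergenic regions did not track that from its other regions. In 1887 genes with 50 or more reads both in distal intergenic regions and in all others, the ratios of the 2 parts had a Spearman correlation of 0.021 and a Pearson correlation of 0.017 across genes, and the same sign in 53.3%. The points share 2 libraries and are not independent replicates. Read counting alone gives an SD of 0.37 at 50 to under 100 reads. That pulls the correlation toward 0, so a ratio shared by both parts could be hidden. Median ratios of the parts were -0.084 for distal intergenic reads and -0.066 for the others. Summed over all genes, reads in distal intergenic regions had a ratio of -0.027, introns 0.0094, promoters -0.056 (-0.025 without the Irf7 region) and exons 0.15. The exonic sum includes the Lrrc4c and Mir101c repeats, which the annotation places in exons.

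**Figure D5:**
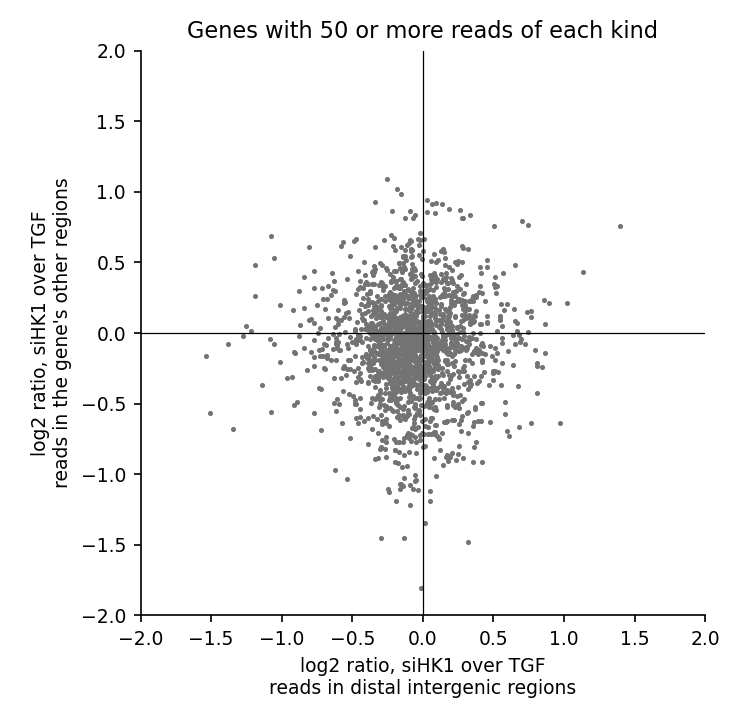
Each point is 1 of 1887 genes without Irf7, with the log2 ratio of siHK1 over TGF from its distal intergenic regions on the horizontal axis and from its other regions on the vertical axis. The cloud is round, with a Spearman correlation of 0.021.

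Peak marks and ratios went together, since both come from the same reads. The 761 genes whose regions were all peaks in TGF only had a median of -0.36 and held 55 of the 65 genes at least 2-fold lower. The 50 genes with peaks in siHK1 only had a median of 0.40, and the 503 with peaks in both had 0.057. By chromosome the medians ran from -0.093 on chromosome 3 to -0.024 on chromosome 11, with chromosome Y at 0.071 over 22 genes. Genes in the least repeat-masked quintile had a median of -0.018 and those in the second most masked quintile -0.089, and the quintiles by GC content lay between -0.072 and -0.042. Over the 5320 genes kept with both antibodies, the H3K9lc and c-JUN ratios had a Spearman correlation of -0.019, across genes that are not independent replicates.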

How the data were processed

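CUT&Tag of primary mouse cardiac fibroblasts was carried out with the Vazyme TD904 kit, and the study gives 1 library per condition. Per the labels the authors' notes name BWA 0.7.12 and mm10, whereas the methods name Bowtie2, MACS2 and GRCm39. All 11104 table transcripts found in GENCODE vM21 basic had its GRCm38 coordinates, so positions are on GRCm38, counted from 1. The deposited tables hold raw read counts per region as the authors obtained them, and 0 or 1 peak marks. The deposited normalized means, log2 ratios, p-values and calls are the authors' own comparison and were not used. Spike-in reads were not used here. In the other 3 tables, 12 columns of counts or peak marks were not used.

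Counts were summed per symbol and scaled to equal totals over all listed regions, with no pseudocount, and a library at 0 would be set to 3 reads as a bound. Regions with no symbol (61, 0.0765% of TGF and 0.0762% of siHK1 reads) entered the totals only. Library depth beyond listed regions is unknown. The NC table holds the same TGF counts at all 44088 shared positions. The ratio and interval were tested on simulated data with read-counting error only, so spread beyond counting was not covered. Telomere matches were runs of 2 or more units, mitochondrial matches used 31-base words and the other repeats 16-base words. Software was Python 3.11.15, pandas 2.3.3, scipy 1.17.1 and edgeR 4.0.16, the last for TMM factors alone.

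Named genes were the 10 lowest and 10 highest by the interval bound nearest 0, the 5 of most reads, the genes the study names and, in each of 29 lists, the 3 members of most reads and the lowest and highest; members of a list with an interval away from 0 were added after their values were seen. Some genes and 1 sequence are not reported here. Members and lists were chosen with earlier results of these data known.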

Additional observations from a re-analysis of the deposited data

How the results depend on the processing

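With 1 library a side these values carry no replicate error, and depth limits them further, since a gene of 50 reads needs a large ratio for its counting interval to leave 0. No paired analysis was possible because the conditions compared have a single library each. Of 17 alternatives, 2 (totals without the 100 regions of most reads, and leaving out the 4 kinds of repeat region) were chosen after seeing the data. Values are given in the order genes at least 2-fold lower, genes at least 2-fold higher, median log2 ratio and percent of genes lower, which were 65, 19, -0.063 and 59.9% as reported. Where a quantity is not given it stayed within 1.5 times, or within its own interval. TMM factors gave 43, 31, -0.0084 and 51.5%. Totals without the 100 regions of most reads gave 42, 31, -0.0040 and 50.6%. Leaving out the 4 kinds of repeat region and setting totals equal again gave 29 higher, -0.022 and 53.8%. Scaling on regions that were a peak in both libraries gave 12 higher, -0.14 and 69.8%. No scaling gave 2619, 0, -0.87 and 99.1%. A minimum of 50 reads after scaling gave 62 higher and 58.5% lower. Of genes with 200 or more reads 1 was lower (Irf7) and 0 higher, with 64.0% below 0. Genes with 1 or more reads in each library gave 779, 794 and 56.7%. Without distal intergenic regions there were 7 higher, -0.046 and 55.8%. Regions within 3 kb of a start site gave 19, 2, -0.042 and 55.3%, over 897 genes. Regions that were a peak in both libraries gave 4 and 7 and turned both other values, to 0.059 and 40.8%. Regions of 10 or more reads gave -0.078 and 62.5%. Without the region of most reads of each gene the values were -0.081 and 62.2%. The median over regions gave 182, 146 and -0.092. Pseudocounts of 0.5 and 1 and keeping only chromosomes 1 to 19 and X moved none of the 4. Fewer genes or regions entered under most of the filters. More genes entered with 50 or more reads after scaling (8962) and with 1 or more reads in each library (12765). Beyond that the cause of these changes was not tested.

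Of 2689 values of named genes and lists under an alternative, 47 changed sign where the interval as reported lay away from 0, and 23 of these did so without scaling, which lowers every gene alike. Unscaled log2 ratios were -0.63 for 2700054A10Rik, -0.31 for A630089N07Rik, -0.49 for Col11a1, -0.53 for Col13a1, -0.64 for Col19a1, -0.54 for Col23a1, -0.40 for Col2a1, -0.58 for Dlg2, -0.41 for Fgf14, -0.56 for Flt1, -0.57 for Hoxb13, -0.073 for Hoxc12, -0.59 for Lama1, -0.66 for Lama2, -0.48 for Lrrc4c, -0.48 for Maf, -0.62 for Mir101c, -0.61 for Oasl1, -0.15 for Pcdhga11, -0.22 for Pdk4, -0.73 for Vmn2r123, -0.54 for Vmn2r87 and -0.63 for Zfp825. Without distal intergenic regions they were -0.20 for Fgf14, 0.46 for Fzd6, 0.13 for Gabrg1, -0.23 for Vmn2r87, -0.0061 for Zfp825 and 0.024 for Zfp982. With regions that were a peak in both libraries only, the median of vomeronasal receptors was 0.018, Olfr1507 was 0.33 and Thy1 0.046. Without the region of most reads, 2700054A10Rik was -0.041, Fgf14 -0.14, Flt1 -0.24, Fzd6 0.10, Vmn2r123 -0.026 and Vmn2r87 -0.069. As a median over regions, Fgf14 was -0.26, Flt1 -0.25, Lrrc4c -0.26, Oasl1 -0.93 and Vmn2r123 -0.013. Without the 4 kinds of repeat region, and with totals set equal again, Fgf14 was -0.10, Flt1 -0.19, Lrrc4c -0.17 and Vmn2r87 -0.028. Scaling on regions that were a peak in both libraries shifted every log2 ratio and interval by -0.075. TMM factors shifted them by 0.054 and totals without the 100 regions of most reads by 0.059. Under 1 or more of these scalings, intervals with a bound close to 0 came to include it, such as those of Ltbp1, Col11a1, Hoxb13 and Oasl1.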
